A study of Mus musculus with 16 samples.

Results

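Hepatocyte identity rests on a small set of transcription factors, and 9 of them were examined in the livers of mice carrying a mutant allele of Trim28. The members were Hnf4a, Foxa2, Foxa3, Cebpa, Cebpb, Nr1i2, Nr1i3, Ppara and Nr5a2. They were taken by symbol, as every probe on the array whose annotated symbol is one of these 9. That rule used no measured value, but the members were chosen with earlier results of these data known. They stood among 16593 genes with a symbol on the array, and all 9 were among the 7302 genes that passed the filter on dim probes. The mutant group was Trim28MommeD9/+, heterozygous for a splice-site point mutation in Trim28 that is predicted to stop translation early (7 arrays, MommeD9 below). Its reference was Trim28+/+ littermates (9 arrays, WT below). All animals were untreated males of the inbred FVB/NJ strain, 4 weeks of age, and total liver RNA was hybridized to Illumina MouseRef-8 BeadChips. RNA came from 4 mice of each genotype with technical replicates, and the labels do not say which arrays share a mouse. Every test therefore took the array as its unit, and its p-value is too small wherever arrays share a mouse.

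HNF4A is a nuclear receptor that binds DNA as a homodimer and maintains the expression of apolipoprotein, clotting factor and bile acid genes in hepatocytes. FOXA2 and FOXA3 are forkhead proteins that bind nucleosomal DNA at liver enhancers, and CEBPA and CEBPB are basic leucine zipper proteins, CEBPA tied to metabolic genes and CEBPB to the acute phase and stress. NR1I2 (PXR) and NR1I3 (CAR) are xenobiotic receptors, PPARA is the fatty acid receptor of the fasting liver, and NR5A2 (LRH-1) acts on bile acid and cholesterol genes. TRIM28 is a corepressor recruited by KRAB zinc finger proteins.

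Of the 9 members, Hnf4a was lower in MommeD9 livers and no other member passed the test in either direction. Among all 7302 genes, 11.4% were called lower and 10.4% higher in MommeD9, so 1 of 9 lower and 0 of 9 higher is a share near or under the background. Expression is given as log2 of the background-corrected, quantile-normalized intensity, and a call is an adjusted p under 0.05 from limma over all genes. At an unadjusted p under 0.05, Hnf4a, Foxa2 and Nr1i2 were lower and Nr5a2 was higher, where 16.1% of all genes were lower and 20.7% higher by that rule. The median log2 fold change (MommeD9 over WT) was 0.01 over the members and 0.05 over all genes. The MommeD9 and WT arrays overlapped for every member, while 1.11% of all genes had every MommeD9 array below every WT array and 1.29% had every MommeD9 array above.

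**Figure D1:**
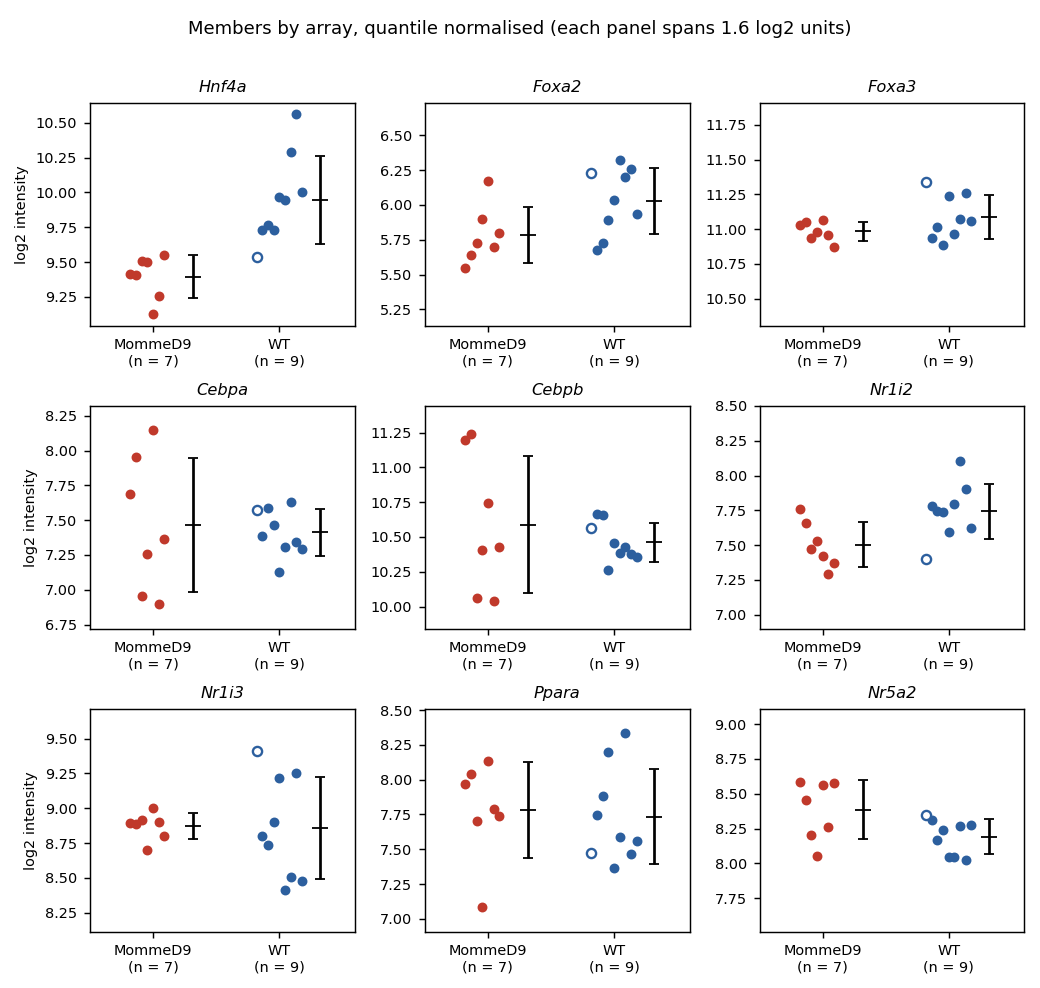
Log2 quantile-normalized intensity (vertical axis) of each member on each array, with MommeD9 (red, 7 arrays) left of WT (blue, 9 arrays). The open circle is WT replicate 1, and the bar beside each group is its mean ± SD. Hnf4a separates the groups except for WT replicate 1 at 9.53, and the Cebpa and Cebpb values of MommeD9 reach above and below those of WT.

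Trim28 itself had 8.53, 8.62 and 8.76 as lowest, median and highest log2 intensity on the MommeD9 arrays, against 8.63, 9.05 and 9.39 on the WT arrays. Its log2 fold change was -0.44 (SE 0.09, adjusted p = 0.0028 by limma), and 1 WT array lay within the MommeD9 range. The sources used here do not place the probe relative to the mutation. Before normalization, mean intensities ran from 205 to 270 on MommeD9 arrays and 273 to 344 on WT arrays, and 9186 to 9572 probes were detected on MommeD9 arrays and 9303 to 10262 on WT arrays. The constant that the authors had subtracted as background was 38.6 ± 1.05 on MommeD9 arrays (SD, n = 7) and 50.8 ± 4.09 on WT arrays (SD, n = 9). By this constant the 7 MommeD9 arrays and WT replicate 1 form a low set (37.6 to 42.7) and the other 8 WT arrays a high set (48.8 to 56.2), so genotype and background are told apart by WT replicate 1 alone. With these sets as a block in the model, each fold change is the MommeD9 mean minus WT replicate 1, and 0.0411% of all genes were called in either direction.

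The liver markers Ttr, Apoa2, Cps1 and Ass1 were detected on all arrays and did not pass the test. Of 7 hepatocyte markers tested, 3 were lower in MommeD9 (Alb, Cyp2e1, Serpina1a) and none higher, with a summed intensity of 77350 to 84790 in MommeD9 and 78810 to 88080 in WT; Fgb was not detected on any array. Under scaling to the median of all probes 6 of the 7 were lower, and with arrays of presumptive technical pairs as a block 1 was; set against WT replicate 1 alone, Alb was at 0.36 and Serpina1a at 0.22. The Alb probe was dim, at 5.39 in MommeD9 and 6.60 in WT, and was detected on 5 of 7 MommeD9 arrays. Of 7 Kupffer cell markers, 4 were higher in MommeD9 (Vsig4, Clec4f, C1qa, C1qb) and none was called lower. Adgre1 at -0.30, Timd4 at -0.13 and Marco at 0.13 were not called. Summed intensities were 1669 to 2045 in MommeD9 and 1285 to 1672 in WT, and Cd5l was not detected. Under scaling to the median of all probes, none of the 7 was higher and 1 was lower. With arrays of presumptive technical pairs as a block, 1 was higher. The part of these marker differences in the values below was not tested. Cholangiocyte, lymphocyte and adipocyte markers left no tested gene, with Krt19, Krt7, Sox9, Cftr, Ms4a1, Ptprc, Adipoq, Lep, Plin1, Retn and Fabp4 not detected on any array. Of the other marker lists, sinusoidal endothelial cells had 1 of 7 genes higher (Pecam1), stellate cells 1 of 7 lower (Col3a1), erythroid cells 0 of 3 called and pancreatic acinar cells 1 of 3 lower (Amy2a5). The Col3a1 and Amy2a5 probes were each detected on 0 of 7 MommeD9 arrays and 8 of 9 WT arrays. Both passed the filter on dim probes through the WT arrays alone, and their MommeD9 level was not measured. In bulk RNA, fewer cells of a type and less RNA per cell cannot be told apart.

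Hnf4a is transcribed from alternative starts on chromosome 2, which lie 40298 bases apart in the RefSeq annotation of GRCm38.p6. The downstream start is the one known to serve adult liver, and the upstream start is known from pancreas and fetal liver. The 250 bases before each start are shown because Hnf4a is the member that was called, with capitals marking matches to the motifs searched on both strands.
Hnf4a upstream start (chr2:163506607-163506856, + strand): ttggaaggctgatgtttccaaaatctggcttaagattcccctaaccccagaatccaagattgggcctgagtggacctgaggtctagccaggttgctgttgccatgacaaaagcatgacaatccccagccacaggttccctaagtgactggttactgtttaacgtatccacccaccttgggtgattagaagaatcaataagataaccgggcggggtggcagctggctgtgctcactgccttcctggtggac
Hnf4a downstream start (chr2:163546905-163547154, + strand): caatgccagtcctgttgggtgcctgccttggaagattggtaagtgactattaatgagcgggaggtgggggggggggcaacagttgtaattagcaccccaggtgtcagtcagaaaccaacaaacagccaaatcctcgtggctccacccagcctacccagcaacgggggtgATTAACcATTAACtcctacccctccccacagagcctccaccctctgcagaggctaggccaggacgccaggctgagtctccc
The motifs were the HNF1 motif GTTAAT, the HNF4 core CAAAGT, the C/EBP site TTGCNNAA, the FOXA site TGTTTAC, the CRE motif TGACG and the TATA box TATAAA. The HNF1 and CRE motifs are parts of the full sites, which were not searched. The window of the downstream start held the HNF1 motif at 81 and 74 bases before the start, both as ATTAAC on the plus strand, and the window of the upstream start held none of the 6 motifs. Of 32851 promoter windows of this length, 6.43% held an HNF1 motif. The sources used here do not say which of the Hnf4a transcripts the array probe reads.

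The lowest, median and highest Hnf4a values were 9.13, 9.41 and 9.55 on the MommeD9 arrays, and 9.53, 9.94 and 10.56 on the WT arrays. Of the 7 MommeD9 arrays, 6 lay below every WT array, and WT replicate 1 at 9.53 was the single WT array within the MommeD9 range. Hnf4a averaged 9.39 ± 0.15 in MommeD9 (SD, n = 7) and 9.95 ± 0.31 in WT (SD, n = 9), a log2 fold change of -0.55 (SE 0.12, 95% interval -0.80 to -0.30, adjusted p = 0.0041 by limma) or 1.47-fold lower in MommeD9. In the deposited intensities before normalization, the probe read 455 to 741 in MommeD9 and 917 to 1839 in WT. The mean intensities of all probes did not overlap either, at 205 to 270 on MommeD9 arrays and 273 to 344 on WT arrays. Leaving out each array in turn kept the difference between -0.60 and -0.48, with adjusted p from 9.0e-04 to 0.0119. Set against WT replicate 1 alone, as that block does, Hnf4a differed by -0.14 (adjusted p = 0.95), while that of Trim28 was -0.77 (adjusted p = 0.19). The block left no member called.

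The arrays were also grouped into presumptive technical pairs, by matching arrays of 1 genotype on all genes, which gave MommeD9 replicates 1 and 2, 3 and 6, and 4 and 7, and WT replicates 2 and 3, 4 and 7, 5 and 8, and 6 and 9. With each pair averaged, Hnf4a was 9.36 ± 0.17 over 4 MommeD9 units and 9.91 ± 0.28 over 5 WT units (SD). With 4 WT mice, at least 1 mouse is in more than 1 of the 5 WT units, so these SDs are not a spread between mice alone. With the pairs as a random block, its difference was -0.55 (adjusted p = 0.0461 by limma), and 4.26% of all genes were called lower. Within the presumptive pairs Hnf4a differed by 0.01 to 0.25 in MommeD9 and by 0.04 to 0.59 in WT. The largest WT difference within a pair was thus about the size of the genotype difference.

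**Figure D2:**
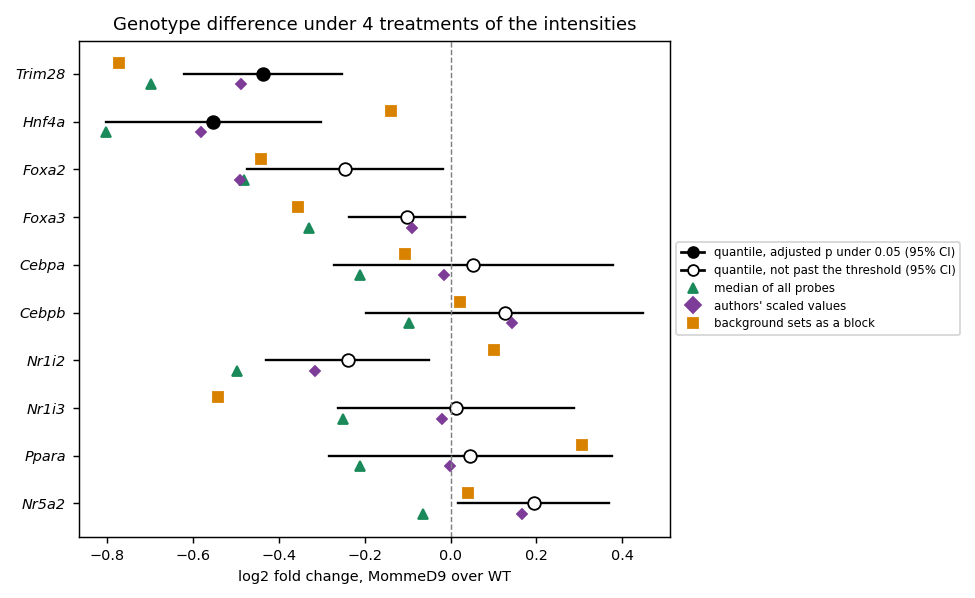
Log2 fold change of MommeD9 over WT (horizontal axis) for Trim28 and the 9 members under quantile normalization (circles with 95% confidence intervals, filled where adjusted p is under 0.05), scaling to the median of all probes (triangles), the authors' scaled values (diamonds) and quantile normalization with background set as a block (squares, the MommeD9 mean minus WT replicate 1). Hnf4a lies at -0.55 by quantile normalization and at -0.14 with the block, and Trim28 at -0.44 and -0.77.

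The forkhead members were not called. Foxa2 had 5.54, 5.73 and 6.17 as lowest, median and highest in MommeD9, against 5.67, 6.04 and 6.32 in WT, on a dim probe that was detected on all 16 arrays. The groups overlapped, with 5 WT arrays inside the MommeD9 range, and the log2 fold change was -0.25 (SE 0.11, 95% interval -0.47 to -0.02, adjusted p = 0.108 by limma). Foxa3 had 10.87, 10.98 and 11.07 in MommeD9 and 10.89, 11.06 and 11.34 in WT, a log2 fold change of -0.10 (SE 0.06, 95% interval -0.24 to 0.03, adjusted p = 0.262). A further Foxa2 probe was not detected on any array and was not tested. In the authors' scaled values, in which 14.2% of all genes were lower, Foxa2 was called (-0.49, adjusted p = 0.0247), as were Hnf4a and Nr1i2.

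The C/EBP members were not called in their mean, and Cebpb was called in its spread. The windows of 250 bases before both starts are shown because the pair moved together across arrays, with the same motifs in capitals.
Cebpa (chr7:35119043-35119292, + strand): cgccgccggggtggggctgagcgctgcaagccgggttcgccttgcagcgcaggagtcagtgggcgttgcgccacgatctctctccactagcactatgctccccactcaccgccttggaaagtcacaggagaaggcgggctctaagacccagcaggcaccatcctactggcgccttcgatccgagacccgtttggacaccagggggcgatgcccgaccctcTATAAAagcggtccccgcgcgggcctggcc
Cebpb (chr2:167688665-167688914, + strand): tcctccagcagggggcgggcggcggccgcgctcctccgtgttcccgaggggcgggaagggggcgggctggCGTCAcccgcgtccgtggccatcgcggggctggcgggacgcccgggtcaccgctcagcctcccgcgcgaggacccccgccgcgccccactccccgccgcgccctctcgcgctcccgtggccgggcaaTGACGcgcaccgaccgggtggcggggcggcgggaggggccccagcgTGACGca
The Cebpa window held 1 match, a TATA box 30 bases before the start, and 12.4% of all windows hold one. The Cebpb window held 3 CRE motifs, at 180, 53 and 7 bases before the start, and 17.8% of all windows hold at least 1. The windows had 22 CpG dinucleotides in Cebpa and 41 in Cebpb, where the median of all windows was 6.

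Cebpb had 10.04, 10.43 and 11.24 as lowest, median and highest in MommeD9, against 10.26, 10.42 and 10.66 in WT. In MommeD9, replicates 1, 2 and 5 lay above every WT array at 11.19, 11.24 and 10.75, and replicates 3 and 6 lay below every WT array at 10.06 and 10.04. The log2 fold change of the mean was 0.13 (SE 0.15, 95% interval -0.20 to 0.45, adjusted p = 0.583 by limma). The SD between arrays was 0.49 in MommeD9 (n = 7) and 0.14 in WT (n = 9), a ratio of 3.51. The study asked whether lower Trim28 widens variation among genetically alike animals, so the spread was compared by limma on each array's absolute deviation from its genotype mean. Cebpb deviated by 0.44 on average in MommeD9 and 0.12 in WT, a difference of 0.32 (SE 0.08, adjusted p = 0.0418). By this rule 1.27% of all genes were more spread in MommeD9 and 0.863% less. The call was lost with deviations from the median (adjusted p = 0.71) and without WT replicate 1 (adjusted p = 0.0525). Within the 3 presumptive MommeD9 pairs Cebpb differed by 0.02 to 0.05, so its spread lay between pairs, which were themselves matched on all genes including this one. Over 4 MommeD9 units and 5 WT units, of which at least 1 mouse gave more than 1, the SD was 0.50 in MommeD9 and 0.14 in WT.

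Cebpa followed the same arrays. Its lowest, median and highest values were 6.90, 7.36 and 8.14 in MommeD9, against 7.13, 7.39 and 7.63 in WT, with replicates 1, 2 and 5 above every WT array and replicates 3 and 6 below. The log2 fold change was 0.05 (SE 0.16, 95% interval -0.27 to 0.38, adjusted p = 0.833). The SD was 0.48 in MommeD9 and 0.17 in WT, and the test of spread missed the threshold (difference 0.28, SE 0.08, adjusted p = 0.0668). As a description, Cebpa and Cebpb centred on their genotype means had a Pearson r of 0.78 over the 16 arrays (Spearman rho 0.75), with 0.84 in the 7 MommeD9 arrays and 0.30 in the 9 WT arrays. Without the 2 arrays farthest from the median of Cebpa, r was 0.80. The points share mice, array and normalization.

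**Figure D3:**
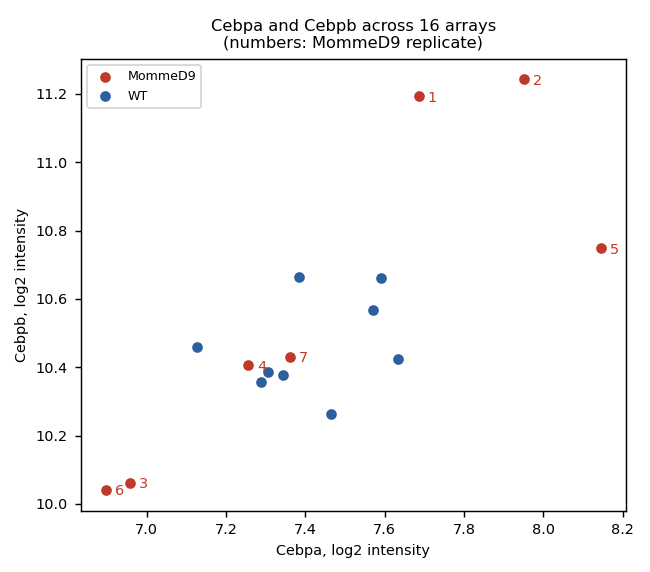
Log2 quantile-normalized intensity of Cebpa (horizontal axis) and Cebpb (vertical axis) on the 7 MommeD9 arrays (red, with replicate numbers) and the 9 WT arrays (blue). MommeD9 replicates 1, 2 and 5 lie above every WT array on both axes and replicates 3 and 6 below.

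**Figure D4:**
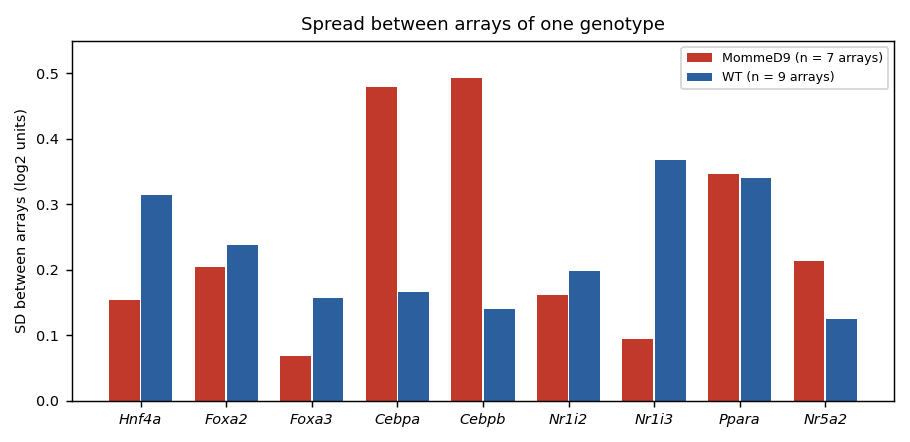
Standard deviation between arrays in log2 units (vertical axis, bars) of each member in MommeD9 (red, n = 7) and WT (blue, n = 9). Cebpb (0.49 in MommeD9, 0.14 in WT) is the member whose spread passed the test, and Nr1i3 (0.09 in MommeD9, 0.37 in WT) has the lowest ratio of MommeD9 to WT.

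The xenobiotic receptors did not pass the test on quantile-normalized values. Nr1i2 passed it under 5 other settings, and 23 settings left it uncalled with the same sign. Nr1i2 had 7.30, 7.47 and 7.76 in MommeD9, against 7.40, 7.74 and 8.10 in WT, and 5 WT arrays lay within the MommeD9 range. Its log2 fold change was -0.24 (SE 0.09, 95% interval -0.43 to -0.05, adjusted p = 0.0635 by limma). WT replicate 1 had the lowest WT value, 7.40, and without that array Nr1i2 was called (-0.28, adjusted p = 0.0195), in a fit that called 13.3% of all genes lower. It was also called without MommeD9 replicate 1 (-0.28, adjusted p = 0.0379). On all 16 arrays Nr1i2 was called with array weights (-0.26, adjusted p = 0.0146), in the authors' scaled values (-0.32, adjusted p = 0.024) and under scaling to the median of all probes (-0.50, adjusted p = 9.2e-04). Nr1i2 was not called with the presumptive pairs as a block (-0.23, adjusted p = 0.239 by limma). Nor was it called with no filter on dim probes (-0.24, adjusted p = 0.12). With background set as a block the difference was 0.10. Nr1i3 had 8.70, 8.89 and 9.00 in MommeD9, against 8.41, 8.80 and 9.41 in WT. The 7 MommeD9 arrays all lay inside the WT range, with a log2 fold change of 0.01 (SE 0.13, 95% interval -0.26 to 0.29, adjusted p = 0.951). The SD of Nr1i3 was 0.09 in MommeD9 and 0.37 in WT, and the difference of the absolute deviations was -0.25 (SE 0.07, adjusted p = 0.0808).

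The lipid and sterol receptors were not called. Ppara had 7.08, 7.79 and 8.14 in MommeD9 and 7.36, 7.59 and 8.33 in WT, a log2 fold change of 0.05 (SE 0.16, 95% interval -0.28 to 0.38, adjusted p = 0.856). Nr5a2 had 8.05, 8.46 and 8.59 on its brightest probe in MommeD9, against 8.02, 8.24 and 8.34 in WT, with 4 of 7 MommeD9 arrays above every WT array. Its log2 fold change was 0.19 (SE 0.08, 95% interval 0.02 to 0.37, adjusted p = 0.102), and 0.25 without MommeD9 replicate 4 (adjusted p = 0.0356). A dimmer Nr5a2 probe, also detected on all arrays, went the other way at -0.27 (SE 0.12, adjusted p = 0.101 in a fit over all probes), from 5.28 to 5.87 in MommeD9 and 5.41 to 6.25 in WT. Another Nr5a2 probe was not detected on any array. The probes of Nr5a2 thus disagree in sign, and the sources used here do not say which transcripts each reads.

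The direction of the small differences depended on which probes set the scale. Scaling to the median of probes detected on all arrays left every member with its sign and Hnf4a alone called. That setting called 968 genes higher and 711 lower. Over all genes the median log2 fold change was -0.19 when each array was scaled to the median of all probes, and 34.6% of all genes were then lower. Hnf4a, Foxa2, Foxa3 and Nr1i2 were called lower under that scaling, and the signs of Cebpa, Cebpb, Nr1i3, Ppara and Nr5a2 turned negative, at -0.21, -0.10, -0.25, -0.21 and -0.06.

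Across the 16 arrays, centred on genotype means, the 36 pairs of members had Pearson r from -0.40 (Nr1i2 with Nr1i3) to 0.78, with a median of 0.09, and 7 pairs were above 0.5. Besides Cebpa with Cebpb, the highest were Foxa3 with Nr1i3 at 0.71 and Cebpa with Nr5a2 at 0.64, and Hnf4a with Nr1i2 stood at 0.57. Without the 2 arrays farthest from the median of the first gene these were 0.45, 0.62 and 0.41.

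Among all 7302 genes, those most like Hnf4a by this centred r were Tial1 (0.95) and Gm5801 (0.94), both lower in MommeD9 (-0.41, adjusted p = 0.0438 and -0.65, adjusted p = 0.0018). Foxa2 was closest to Keg1 (0.88) and Borcs6 (0.77). Foxa3 was closest to Mbd1 (0.90) and to Alas1 (0.89). Cebpa was closest to Rnf5 (0.91) and Kif1b (0.88), and Cebpb to Scamp1 (0.95) and Trib3 (0.93). Of these, Rnf5 and Trib3 were higher in MommeD9, at 0.20 (adjusted p = 0.0294, but -0.07 when scaled to the median of all probes) and 0.68 (adjusted p = 0.0094). Nr1i2 was closest to Ginm1 (0.92) and Atxn10 (0.91), and Nr1i3 to Anks3 (0.94) and Eif4ebp3 (0.92). Ginm1 and Alas1 were lower in MommeD9, at -0.51 (adjusted p = 0.0098 by limma) and -1.55 (adjusted p = 9.3e-05). Ppara was closest to Mafg (0.88) and Slc25a48 (0.88), and Nr5a2 to Marf1 (0.84) and Wwc2 (0.80).

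The partners and known targets of the members were read from 10 lists. Their counts of calls shifted with the scaling and with the presumptive technical pairs as a block, and both counts are given for each list. The target lists held 67 distinct genes tested, of which 2 were higher in MommeD9, 14 were lower and 51 did not pass, with a median log2 fold change of 0.00. By the same test 11.4% of all 7302 genes were lower and 10.4% higher, with a median of 0.05. Of all genes, 34.6% were lower under scaling to the median of all probes and 4.26% with the presumptive pairs. No test of a list as a set was run.

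**Figure D5:**
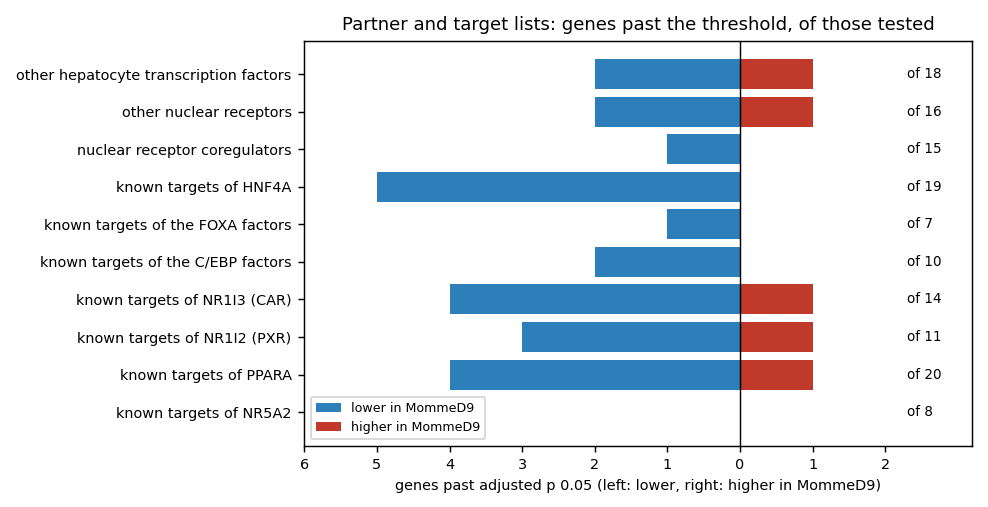
Number of genes past an adjusted p of 0.05 (horizontal axis) in each list of partners or known targets, with genes lower in MommeD9 to the left of 0, genes higher to the right and the number tested at the end of the row. The list of HNF4A targets has 5 of 19 genes lower and none higher, and the list of NR5A2 targets has none called. Of all genes, 11.4% were lower and 10.4% higher.

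Of 19 HNF4A targets tested, 5 were lower in MommeD9, none was higher and 14 did not pass. Under scaling to the median of all probes 13 were lower, with the presumptive pairs as a block 2 were, and 3 were when probes had to be detected on all arrays. Baat, which conjugates bile acids, averaged 8.60 ± 0.22 in MommeD9 (SD, n = 7) and 9.76 ± 0.55 in WT (SD, n = 9), a log2 fold change of -1.16 (SE 0.20, adjusted p = 0.0015 by limma). Otc, a urea cycle enzyme, stood at -0.91 (SE 0.19, adjusted p = 0.0035). The others that passed were Slc10a1, the bile acid importer (-0.44, on a dim probe at 5.13 in MommeD9 and 5.57 in WT), Serpina1a (-0.80) and Pck1 (-0.86, on a probe detected on 2 of 7 MommeD9 arrays). They were named after their values were seen. With background set as a block these 5 stood at -0.09, 0.20, 0.00, 0.22 and -0.02, so that WT replicate 1 was near the MommeD9 mean for each, as it was for Hnf4a. The abundant apolipoprotein and transthyretin targets had narrow groups after quantile normalization, which gives every array the same set of values. Before normalization Ttr read 15781 to 18242 in MommeD9 and 17816 to 27688 in WT. Apoa1 was at -0.06 (SE 0.04, adjusted p = 0.269), Apoc3 at 0.04 (SE 0.04, adjusted p = 0.574) and Ttr at -0.06 (SE 0.05, adjusted p = 0.381). Under scaling to the median of all probes these 3 were called lower, at -0.27, -0.18 and -0.33 (adjusted p = 0.0036, 0.0213 and 9.3e-04), so the sign of Apoc3 turned. The median of the list was -0.06.

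Of 7 FOXA targets, Pck1, the first committed enzyme of gluconeogenesis, was the only one called (-0.86, SE 0.25, adjusted p = 0.0201), on a probe detected on 2 of 7 MommeD9 arrays and 7 of 9 WT arrays. The glucose transporter gene Slc2a2 was at 0.30 (adjusted p = 0.113). Under scaling to the median of all probes 4 of the 7 were lower, and with the presumptive pairs none was called. Of 10 C/EBP targets, Pck1 and Alb were lower, against 3 lower under scaling to the median of all probes and 1 with the presumptive pairs. Alb was at -1.21 (SE 0.22, adjusted p = 0.0016) on its dim probe, and at 0.36 with background set as a block. Cps1, the entry enzyme of the urea cycle, was at 0.11 (adjusted p = 0.311).

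The xenobiotic lists gave opposite calls in their leading genes. Cyp2b10, the cytochrome P450 gene most used as a readout of CAR, was higher in MommeD9, at 8.33 ± 0.20 (SD, n = 7) against 7.11 ± 0.91 in WT (SD, n = 9). Its log2 fold change was 1.22 (SE 0.31, adjusted p = 0.0109). The MommeD9 arrays, from 7.96 to 8.59, lay inside the WT range of 6.39 to 8.76 (WT median 6.82). No WT array lay within the MommeD9 range. Alas1, which catalyses the first step of heme synthesis and is a target of both receptors, averaged 10.96 ± 0.15 in MommeD9 and 12.51 ± 0.51 in WT. All 7 MommeD9 arrays (10.81 to 11.22) lay below all 9 WT arrays (11.98 to 13.19), with a log2 fold change of -1.55 (SE 0.18, adjusted p = 9.3e-05). Alas1 was at -2.23 against WT replicate 1 alone, the WT array with its highest value (13.19). Of 14 CAR targets, 1 was higher and 4 were lower, and of 11 PXR targets 1 was higher and 3 were lower. Scaling to the median of all probes gave 1 higher and 5 lower CAR targets and 1 higher and 4 lower PXR targets, and the presumptive pairs gave 1 higher and 3 lower in both lists. The lists share Cyp2b10, Alas1, Aldh1a7 (-0.72, adjusted p = 0.0013) and Aldh1a1 (-0.67, adjusted p = 0.0025), and the CAR list adds Cyp2c37 (-0.17, adjusted p = 0.0303). Set against WT replicate 1 alone, Aldh1a7 was at -0.12 (adjusted p = 0.95), Aldh1a1 at -0.09 (adjusted p = 0.97) and Cyp2b10 at 1.38 (adjusted p = 0.69). Aldh1a1 and Cyp2c37 were named after their values were seen. Cyp3a11, the main PXR target of mouse liver, was at 0.25 (SE 0.12, adjusted p = 0.133), and Cyp3a13 was at 0.05 (adjusted p = 0.701). Cyp2b9 was at 0.08 (adjusted p = 0.777) and Cyp2b13 at 0.32 (adjusted p = 0.587).

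Of 20 PPARA targets, 4 were lower, 1 was higher and 15 did not pass. Scaling to the median of all probes gave 8 lower and none higher, and the presumptive pairs 2 lower and none higher. Hadhb, a subunit of the mitochondrial trifunctional protein of fatty acid oxidation, was at -1.06 (SE 0.19, adjusted p = 0.0016), and Ehhadh, an enzyme of peroxisomal oxidation, at -0.81 (SE 0.20, adjusted p = 0.0095). Acadl (-0.25) and Acadvl (-0.14), both acyl-CoA dehydrogenases, were also lower and the peroxisomal thiolase Acaa1b was higher (0.19, but -0.03 when scaled to the median of all probes), named after their values were seen. With background set as a block, Hadhb was at -0.03 and Ehhadh at -0.33. The fasting-responsive targets varied widely between arrays and did not pass. Cyp4a14 was at -0.91 (SE 0.43, adjusted p = 0.14), Pdk4 at 0.13 (SE 0.41, adjusted p = 0.85) and Fgf21 at -0.60 (SE 0.49, adjusted p = 0.392). The SD of Fgf21 was 1.44 in MommeD9 and 0.74 in WT.

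Of 8 NR5A2 targets none was called in either direction on quantile-normalized values, while 3 were lower under scaling to the median of all probes and 1 was higher without WT replicate 1. None was called with the presumptive pairs. Cyp7a1, the rate-limiting enzyme of bile acid synthesis, was at -0.68 (SE 0.33, adjusted p = 0.151), Cyp8b1, which makes cholic acid, at 0.36 (SE 0.15, adjusted p = 0.09) and Scarb1 at 0.00 (SE 0.11, adjusted p = 0.996). Under scaling to the median of all probes Cyp7a1 was called at -0.93 (adjusted p = 0.0321) and Apoa1 as given above, and the target called without WT replicate 1 was Cyp8b1 (adjusted p = 0.0493).

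Of 18 other hepatocyte transcription factors, 2 were lower and 1 was higher. Xbp1, a factor of the unfolded protein response, was at -0.29 (SE 0.08, adjusted p = 0.0125) and Tbx3 at -0.82 (SE 0.24, adjusted p = 0.0211), and Gata6 was at 0.21 (adjusted p = 0.03), named after its value was seen. Foxa1, the remaining forkhead paralogue, was at -0.16 (SE 0.10, adjusted p = 0.222), Onecut2 at -0.21 (adjusted p = 0.0613) and Prox1 at -0.35 (adjusted p = 0.0684). Under median scaling of all probes, 10 of the 18 were lower, none was higher and Gata6 stood at -0.05. With the presumptive pairs Tbx3 alone was called, and Xbp1 had an adjusted p of 0.065 and Gata6 one of 0.115.

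Of 16 other nuclear receptors tested, Nr1h4 (FXR), the bile acid receptor, was lower at -0.20 (SE 0.06, adjusted p = 0.0165), and Esr1 was lower at -0.50 (adjusted p = 0.0382), named after its value was seen. With the presumptive pairs neither was called (adjusted p = 0.105 for Nr1h4 and 0.165 for Esr1), and set against WT replicate 1 alone Esr1 turned to 0.47. Rxrg, a partner receptor for heterodimers, was higher at 0.42 (SE 0.07, adjusted p = 0.0015), with 7 of 7 MommeD9 arrays above every WT array. Rxrg was at 0.19 (adjusted p = 0.119) under scaling to the median of all probes, and before normalization its intensity was 73.7 to 99.8 in MommeD9 and 85.6 to 105.4 in WT. That scaling gave 4 receptors lower and none higher, and with the presumptive pairs Rxrg alone was called. Rarb was at -0.15 (adjusted p = 0.321), Pparg at 0.30 (adjusted p = 0.0518) and the clock repressor Nr1d1 at 0.60 (SE 0.38, adjusted p = 0.265). A further 22 receptors of the list were not detected on any array. Of 15 coregulators, Med1, the Mediator subunit that binds nuclear receptors, was the one called, at -0.62 (SE 0.11, adjusted p = 0.0015), also with the presumptive pairs. The Med1 probe was dim, at 5.43 in MommeD9 and 6.05 in WT, and against WT replicate 1 alone Med1 was at -0.23. Under scaling to the median of all probes 5 coregulators were lower. The PGC-1 genes Ppargc1a and Ppargc1b were at 0.36 (SE 0.21, adjusted p = 0.226) and 0.75 (SE 0.29, adjusted p = 0.0645), and Ncoa1 was at 0.07 (adjusted p = 0.639).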

How the data were processed

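Total RNA of 16 liver arrays was analysed, grouped as labelled. The authors deposited non-normalized probe intensity values with a detection p-value for each, and a second table of intensity values that the authors had scaled after subtracting a constant from each array. BeadStudio and GenomeStudio are named, with no version in the sources used here. Of 25697 probes, 23978 had a symbol. Background correction and quantile normalization used neqc of limma 3.58.1 in R 4.3.3 (offset 16). Probes with a detection p under 0.01 on at least 3 arrays were kept (10291), among them 10 of 12 member probes, and the probe with the highest mean represented each of 7302 genes. Genotypes were compared with limma's moderated test with an intensity trend and Benjamini-Hochberg adjustment (threshold 0.05). Levels of different probes were not compared, and the number of arrays limits the precision. Both models were checked on simulated data with independent arrays. The simulation held no shared mice and no background difference, so the check does not cover those limits.

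Genes named were Trim28, each member, the first 3 tested genes of each list, up to 2 further genes of a list with the smallest p among those called, and the 2 genes most correlated with each member. Cell type markers, and the remaining called genes of a list with few calls, were named outside this rule. Members, lists and tests were chosen with earlier results of these data known. Replicate numbers of the labels do not pair the arrays: same-numbered arrays correlated from -0.39 to 0.48, and 2 of 7 correlated best with their own number. Promoter sequences came from RefSeq on GRCm38.p6, where 9 of 9 members matched. Python 3.11.15, pandas 2.3.3 and Matplotlib 3.10.9 were used.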

Additional observations from a re-analysis of the deposited data

Results flagged for a closer look

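In the 20 groups of arrays read for Trim28 and the members, 1 array stood apart from its group by Dixon's ratio, about the number that chance gives. Ppara on MommeD9 replicate 4 was at 7.08, and the nearest of the other MommeD9 arrays was at 7.71, a gap of 0.592 of the group's range. MommeD9 replicate 7, its presumptive technical pair, was at 7.74.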

How the results depend on the processing

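Hnf4a kept its direction and its call under the alternatives run, apart from the background sets as a block (-0.14, adjusted p = 0.95), and Trim28 lost its call under the same block (-0.77, adjusted p = 0.19). Members called lower numbered 4 under scaling to the median of all probes, 3 in the authors' scaled values, 2 with array weights and 0 with the background block. Leaving out single arrays gave 1 to 2 members lower (Nr1i2 added without MommeD9 replicate 1 or WT replicate 1) and 0 to 1 higher (Nr5a2, without MommeD9 replicate 4). Genes called higher and lower among all 7302 were 761 and 831, against 35 and 2526 with the median of all probes, 364 and 1034 in the authors' scaled values, 461 and 717 with no filter, 176 and 311 with presumptive pairs, 2 and 1 with the background block, 30 and 302 with a fold change of at least 1.5 (Hnf4a, at 1.47, is under it), and 502 to 981 and 664 to 974 with single arrays left out. With the replicate number as a block, 162 and 379 were called, Hnf4a was at -0.46 (adjusted p = 0.0287) and Ppara changed sign to -0.0168. Signs also turned for Cebpa (-0.0142 in the authors' scaled values, -0.0345 with array weights, -0.11 with the background block), Cebpb (-0.0057 with array weights), Nr1i2 (0.10 with the background block), Nr1i3 (-0.0204 in the authors' scaled values, -0.0084 with presumptive pairs, -0.54 with the background block), Ppara (-0.0013 in the authors' scaled values, -0.0518 with array weights) and Nr5a2 (-0.0365 as the mean over probes, -0.27 on its other probe), none of them called. The median of all probes gave Cebpa -0.21, Cebpb -0.10, Nr1i3 -0.25, Ppara -0.21 and Nr5a2 -0.0646. With single arrays left out, Cebpa ran from -0.0603 to 0.148, Nr1i3 from -0.0423 to 0.0828 and Ppara from -0.0130 to 0.163. The spread of Cebpb was 0.30 (adjusted p = 0.71) from the median and 0.32 (adjusted p = 0.0525) without WT replicate 1, and that of Nr1i2 turned to 0.0188 without it. The causes were not tested.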

Other observations

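The 13 windows of 250 bases before the annotated starts of the 9 members held a median of 6 CpG dinucleotides and 54.4% GC, and all 32851 windows a median of 6 and 52.4%. Matches to the HNF1 motif GTTAAT stood in 3 of the 13 windows, in Hnf4a, Foxa2 and Nr5a2, and in the Foxa2 window the match overlapped one to the HNF4 core. No member window held the FOXA site TGTTTAC, which 3.17% of all windows hold.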
